A study of Homo sapiens with 21 samples.

Results

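The genes described here encode the proteins of the cytosolic ribosome in BJ cells, a human skin fibroblast line with a limited number of divisions. They were taken by a rule on gene names: protein-coding genes named RPL or RPS with a number and at most a final A, X or Y, together with RPLP0, RPLP1, RPLP2 and RPSA and the minor paralogs RPL7L1, RPL22L1, RPL36AL and RPL39L, none of them on chromosome Y. This gave 81 of the 61544 genes in the table, 31 for the small subunit, 46 for the large subunit and 4 for the minor paralogs of large-subunit proteins. FAU and RACK1, which also supply ribosomal proteins, fall outside the naming rule and are given apart.

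Poly(A)-selected RNA was sequenced in 21 libraries of 7 groups, 3 libraries each. The molecule field of the labels reads genomic DNA, whereas the protocol describes RNA, and the protocol is followed here. The first 5 groups were untreated BJ cells at passages 3, 11, 24, 30 and 33 (P3, P11, P24, P30 and P33). The other groups were passage 11 cells given DOX at 50 ng/ml, which the series title names as doxorubicin, an anthracycline that poisons topoisomerase II and breaks DNA, or the solvent DMSO. All groups are the same single line, no group carries a labelled genetic change, and the sources used here do not state how long DOX was given. Nothing in the labels tells if the 3 replicates were separate cultures, so p-values reflect how far these libraries differ, and that spread may be technical.

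A cytosolic ribosome joins a small subunit, which holds the mRNA and reads its codons, to a large subunit, which forms the peptide bonds and lets the chain out through a tunnel. Ribosomal proteins are for the most part needed in equal amounts, imported into the nucleolus and fitted onto ribosomal RNA, and those left unassembled are degraded. Most of their mRNAs begin with a C followed by a run of pyrimidines, the 5′ terminal oligopyrimidine (TOP) tract, through which LARP1 and the MTOR kinase set how much of the mRNA is translated or stored. In fibroblasts near the end of their lifespan, falls in ribosome production and free ribosomal proteins that bind MDM2, the ubiquitin ligase of p53, have both been studied as parts of senescence.

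The TOP tract was read at the RefSeq transcription starts (GRCh38.p14) of the 65 genes with an entry. It was scored on the transcribed strand as a C at the listed start followed by at least 4 bases that are each C or T. A listed start of 47 of the 65 genes carried it, or 72.3%, against 4.98% of 27240 other genes. Counted over start windows, the share was 58.8% of the 80 windows of these genes and 4.07% of all 35116 windows of the same length. The tract was 5 to 19 bases long. A match describes the letters at a listed start, and no match says only that they are not in this window. The lines below show 15 bases before the start and 15 from it, 5′ to 3′, with the tract in capitals. The first 6 belong to genes that carry the tract and moved in different ways, and the last 4 to genes without a match, among them the gene with the deepest fall between P3 and P33.
RPS6, chr9:19380222-19380251, minus strand: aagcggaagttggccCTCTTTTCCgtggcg
RPS21, chr20:62387088-62387117, plus strand: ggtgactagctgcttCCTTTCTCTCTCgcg
RPS25, chr11:119018329-119018358, minus strand: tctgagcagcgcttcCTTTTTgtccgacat
RPS19, chr19:41860240-41860269, plus strand: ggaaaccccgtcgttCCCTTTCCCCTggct
RPL22L1, chr3:170870181-170870210, minus strand: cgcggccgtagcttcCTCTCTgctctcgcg
RPL41, chr12:56116618-56116647, plus strand: cggaacttcgcctttCTCTCggccttagcg
RPS26, chr12:56041903-56041932, plus strand: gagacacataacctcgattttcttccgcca
RPS7, chr2:3575245-3575274, plus strand: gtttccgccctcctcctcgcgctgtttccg
RPS28, chr19:8321481-8321510, plus strand: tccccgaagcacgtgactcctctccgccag
RPL36AL, chr14:49620612-49620641, minus strand: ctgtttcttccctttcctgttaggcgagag

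Library totals ran from 12.9 to 27.2 M counts, and the fibroblast markers summed to between 15131 and 40484 CPM (counts scaled by library size) in every library. Leukocyte and endothelial markers summed to at most 2.29 and 6.66 CPM. Keratinocyte markers summed to 175 to 421 CPM, with 5 of their 9 genes under 1 CPM in all libraries. The 5 markers of melanocytes and Schwann cells summed to 27.3 to 78.2 CPM. The passage libraries and the DOX and DMSO libraries were not counted alike: of 9429 genes nested within a longer gene of the same strand, 0 had a read in the 15 passage libraries and 3950 had reads in the 6 others. Each set was therefore fitted apart, and levels are not compared across them, 1 mention of RPL41 apart.

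That difference reached at least 5 of the ribosomal protein genes directly, and its reach to the others was not tested. These 5, among them RPL17, RPL26, RPL36A and RPS10, are covered over at least 96.49% of their span by readthrough or other overlapping genes on their own strand. In the passage libraries they held 0 to 3 counts per group of 3 libraries, so they could not be tested there, which left 76 genes. In the DMSO libraries RPL17, RPL26, RPL36A and RPS10 held 516, 352, 254 and 32 counts, still few for ribosomal protein genes, and all 81 were tested. RPL22, the large-subunit protein at the solvent face that also binds other RNAs, is 56.13% covered and held 363 counts over the 3 P3 libraries. In all, 41 of the 81 genes overlap some gene on the same strand, in most cases a small nucleolar RNA in an intron, and 40 do not. Ribosomal protein genes also have many processed pseudogenes. The 1294 pseudogenes named after these genes took 0.0349 to 0.0486% of the counts, and the sources used here do not state how reads matching several places were counted.

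The 81 genes together took a smaller mean share of all counts at each later passage. The share was 2.99, 3.21 and 3.0003% in the P3 libraries, 2.72, 2.87 and 2.79% at P11, 2.40, 2.47 and 2.28% at P24, 2.33, 2.28 and 2.33% at P30 and 1.93, 1.93 and 1.94% at P33. Libraries of P24 and P30 overlapped, and no other neighbouring passages did. The mean was 3.07% ± 0.127 at P3 and 1.93% ± 0.00766 at P33 (SD, n = 3), a ratio of 0.631, and the exact two-sided permutation test gave p = 0.1, the smallest it can give with 3 against 3. The step from P24 to P30 had an exact permutation p of 0.3. With DMSO the share was 3.52, 3.45 and 3.92% and with DOX 3.37, 3.804 and 3.69%, so the libraries overlapped, with means of 3.63% ± 0.256 and 3.62% ± 0.226 (exact permutation p = 1). In RNA from whole cultures, fewer cells of a kind and less of an RNA per cell cannot be told apart.

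**Figure D1:**
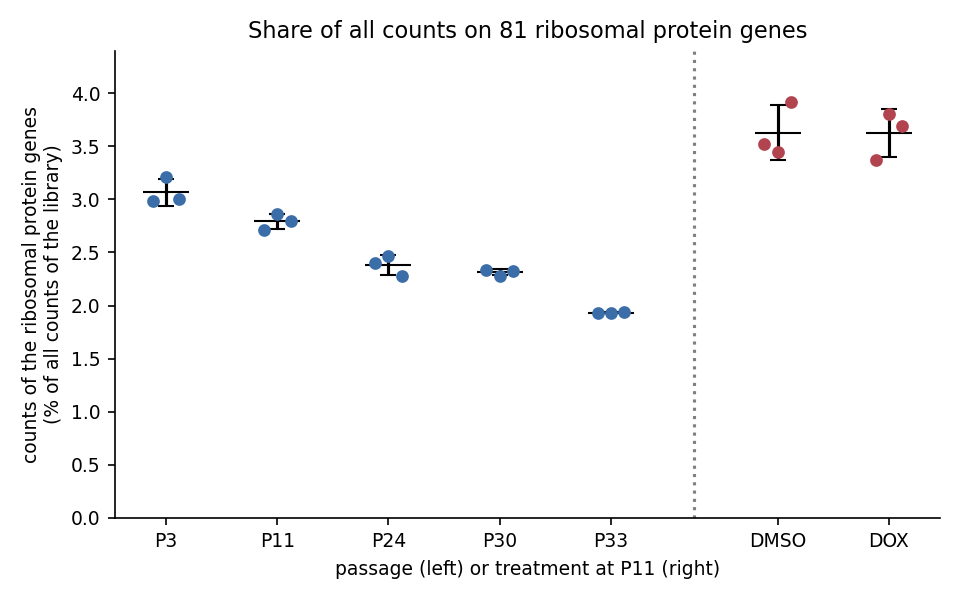
Counts on the 81 ribosomal protein genes as a percent of all counts of each library (vertical axis, from 0), by passage on the left and for DMSO and DOX at P11 on the right. Points are libraries, the wide mark is the mean and bars are 1 SD of 3 libraries. The passage libraries step down from about 3.07% to 1.93%, and the DMSO and DOX libraries overlap. The 2 sides were counted differently and are not compared.

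Tested gene by gene, nearly the whole set fell between P3 and P33. Counts were fitted with edgeR's quasi-likelihood model, with Benjamini-Hochberg adjustment across the 15642 genes tested in the passage libraries, and the words rise and fall stand for an adjusted p under 0.05. Of the 76 ribosomal protein genes 72 fell and 1 rose, while over all genes tested 35.9% fell and 37.8% rose. The median log2 fold change was -0.92, a fall of 1.89-fold, beside 0.03 over all genes tested. A fall of at least 2-fold was called for 28 of the 76, against 6.58% of all genes tested. The P33 libraries all lay below the P3 libraries for 72 of the 76 genes, a pattern held by 36.6% of all genes tested. Small-subunit and large-subunit genes had close medians, -0.88 over 29 genes and -0.93 over 43. Scaling by library totals without TMM factors moved the median of all genes from 0.03 to 0.22 and that of the ribosomal protein genes from -0.92 to -0.73. On that scale 72 also fell, where 11670 of all 15642 genes tested passed in either direction. The share of all genes that fell on that scale is not given here. Other measures of the libraries moved with passage as well. Fibroblast markers summed to 15131 to 17317 CPM at P33 and to at least 19587 CPM at the other passages, and keratinocyte markers to 175 to 198 CPM at P33 and at least 274 CPM before. Long noncoding RNAs took 0.945 to 0.962% of counts at P3 and 1.46 to 2.11% at later passages. Mitochondrially encoded mRNAs took 4.68 to 4.90% of counts at P33 and 3.19 to 4.25% at the other passages. Their part in the fall of the ribosomal protein genes was not tested.

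The fall came in steps with a level stretch between them. From P3 to P11, 63 of the 76 genes fell and 3 rose, with a median log2 change of -0.32 (all genes tested: 27.8% fell and 24.6% rose). P24 against P11 showed 55 falls and 2 rises, median -0.18 (19.1% and 19.5%). Between P24 and P30 the median was 0.01: 8 genes fell, 4 rose and 64 did not pass, where 20.7% of all genes fell and 19.5% rose. The falls were RPSA, RPL39L, RPL22L1, RPLP0, RPS24, RPS2, RPL35 and RPS12, and the rises RPL12, RPL13A, RPL27A and RPL37A, none past 0.24. Between P30 and P33 came 71 falls and 1 rise, median -0.39 (25.7% and 27.8%), and the P33 libraries all lay below the P30 libraries for 72 genes, against 28.7% of all genes tested. Against P3, 70 genes fell and 3 rose at P24, median -0.57 (30.8% and 29.5%), and 72 fell and 2 rose at P30, median -0.52 (33.6% and 31%). With library totals in place of TMM factors, P11 against P3 had 50 falls and a median of -0.19, with all genes at 0.12, and P33 against P30 had 56 falls and a median of -0.25, with all genes at 0.16. On that scale 8304 and 8631 of the 15642 genes tested passed in either direction for these 2 comparisons. Comparisons that share P3 or a neighbouring passage share those libraries. The mean was highest at P3 for 71 genes and lowest at P33 for 71, and it stepped down at every passage for 30. How many of all genes tested had these patterns is not given here. Of the 76, 74 differed somewhere among the 5 passages by the quasi-likelihood F test, as did 89.7% of all genes tested, and RPL22 and RPS29 did not pass.

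**Figure D2:**
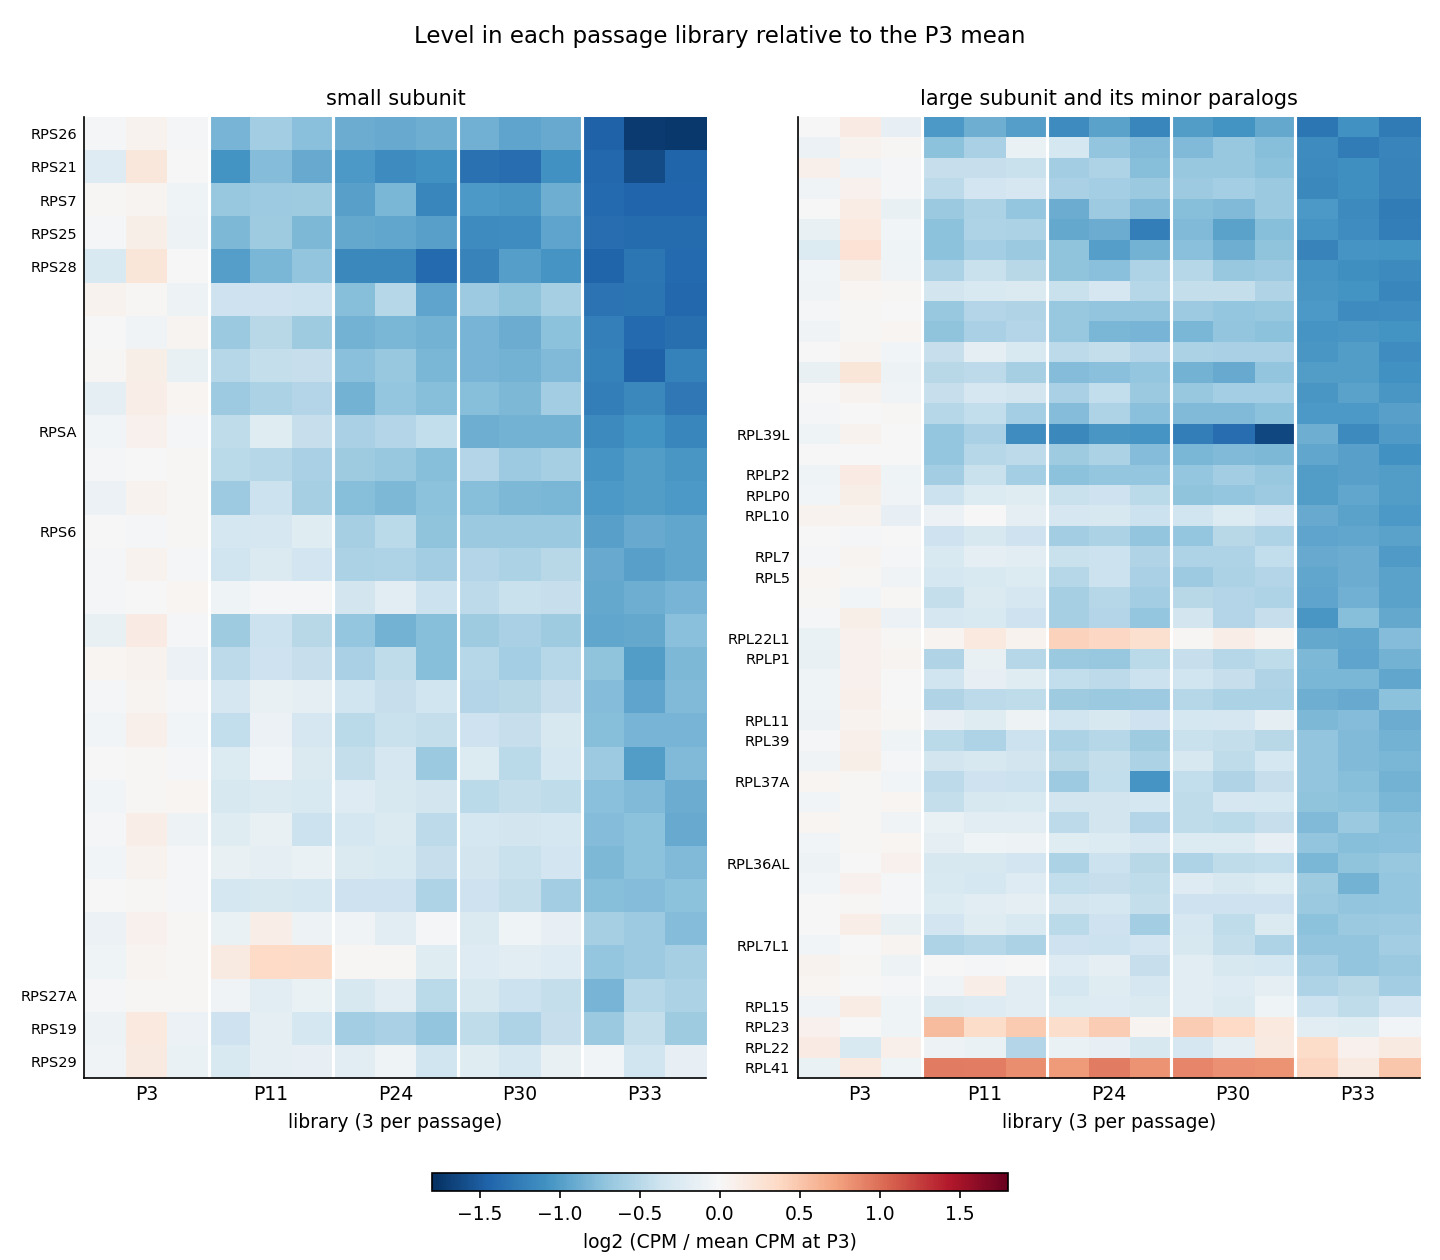
Level of each of the 76 tested genes (rows, ordered by their log2 fold change from P3 to P33) in each of the 15 passage libraries (columns, 3 per passage), as log2 of CPM over the gene's mean CPM at P3. Labels mark the main genes described in the text, and other rows carry none. Blue is lower and red higher than P3. Most rows darken to blue at P33, while RPL41 and RPL23 are red from P11 to P30 and RPL22L1 at P24.

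The 5 deepest falls were all in the small subunit. RPS26 (chr12:56041351-56044697 in the table, build hg38), a protein at the mRNA exit channel that touches bases upstream of the start codon, stood at 396, 418 and 392 CPM at P3, 225, 259.9 and 238 at P11, 216, 215 and 219.6 at P24, 219.9, 209 and 215 at P30 and 147, 122 and 121 at P33. Its P3 libraries were the highest and its P33 libraries the lowest, with no overlap between them or with the passages between. The log2 fold change from P3 to P33 was -1.63 ± 0.06 (SE), a fall of 3.09-fold (edgeR adjusted p = 7.36e-18). It fell at P11 (-0.74 against P3), by little at P24 (-0.15, adjusted p = 0.0458, a call lost without any 1 library of P24 or P11 replicate 2 or 3), not detectably at P30 (-0.02, adjusted p = 0.869) and again at P33 (-0.72 against P30).

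RPS21 (chr20:62387103-62388520), a small protein with a role in maturing the small-subunit RNA, read 32.95, 44.5 and 38.6 CPM at P3, 18.3, 22.5 and 20.6 at P11 and 14.5, 12.7 and 14.2 at P33. Every P11 library was already under every P3 library, and its log2 change from P3 to P33 was -1.49 ± 0.09 (edgeR adjusted p = 2.22e-13). Most of that lay in the step to P11 (-0.92 ± 0.09), and the step from P30 to P33 did not pass (-0.21 ± 0.11, adjusted p = 0.106). RPS25 (chr11:119015712-119018691), known for its part in initiation from viral internal entry sites, went from 237, 257 and 224 CPM to 92.3, 91.7 and 91.6 (-1.38 ± 0.06, adjusted p = 6.21e-17). RPS28 (chr19:8321158-8323340), a neighbour of RPS26 at the exit channel, went from 38.7, 54.4 and 46.98 CPM to 17.2, 18.9 and 17.7 (-1.38 ± 0.10, adjusted p = 1.33e-12). For both genes the P3 and P33 libraries were well apart.

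RPS7 (chr2:3575260-3580920) has a role in processing the small-subunit RNA and is one of the proteins that can bind MDM2 when free. It read 419, 427 and 389.9 CPM at P3, 257, 261 and 264 at P11, 209, 234 and 183 at P24, 201, 199 and 223 at P30 and 157, 153 and 153 at P33. P24 and P30 overlapped and the other neighbouring passages did not, and the log2 change from P3 to P33 was -1.42 ± 0.06 (edgeR adjusted p = 2.00e-16).

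Other small-subunit proteins with known roles fell too. RPS6, the substrate of the S6 kinases that lie below MTOR, read 1068, 1052 and 1082 CPM at P3 and 541, 569.9 and 559.8 at P33, a log2 change of -0.94 ± 0.05 (edgeR adjusted p = 6.61e-15). RPSA, which doubles as a laminin receptor at the cell surface, went from 226, 245 and 227 to 105, 110.3 and 103 CPM (-1.13 ± 0.06, adjusted p = 1.50e-15). Unlike most of the set, RPSA also fell between P24 and P30, from 156, 161 and 170.5 to 126, 128 and 129 CPM (-0.35 ± 0.06, adjusted p = 1.74e-05). RPS27A, made as a fusion with ubiquitin and thus also a source of it, went from 454, 469.6 and 469 to 261, 326 and 314 CPM (-0.63 ± 0.07, adjusted p = 5.59e-09).

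RPS19, the protein most often mutated in Diamond-Blackfan anaemia and needed to mature the small-subunit RNA, fell early and then levelled. It read 247, 296 and 244 CPM at P3, 170.1, 175 and 160.5 at P24, 191, 179 and 198 at P30 and 165, 195 and 169 at P33. The P33 libraries all lay under the P3 libraries, but they overlapped those of P30. Its change was -0.57 ± 0.07 from P3 to P33 (edgeR adjusted p = 3.95e-08) and -0.10 ± 0.07 from P30 to P33 (adjusted p = 0.227). RPS2, a protein at the mRNA entry channel, rose from 321, 351 and 343 CPM at P3 to 378, 435 and 428 at P11 (0.29 ± 0.06, adjusted p = 1.82e-04). By P33 it had fallen to 209.6, 215 and 224 CPM, below every P3 library (-0.65 ± 0.06, adjusted p = 3.27e-10).

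RPS29, a zinc-binding protein of the small-subunit head, did not follow the rest. Its libraries read 21.2, 24.8 and 20.3 CPM at P3, 18.3, 19.8 and 19.9 at P11, 19.2, 21.03 and 17.2 at P24, 19.1, 17.7 and 20.1 at P30 and 21.4, 17.3 and 19.9 at P33, with P24 and P33 overlapping P3 and the P11 and P30 libraries just under it. The change from P3 to P33 was -0.18 ± 0.09 (edgeR adjusted p = 0.0623), so it was the 1 small-subunit gene of 29 that did not pass. It passed as a fall in 4 of the alternative settings, without P3 replicate 1 (-0.22), P3 replicate 3 (-0.24) or P33 replicate 1 (-0.26) and with no count filter (-0.22).

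In the large subunit, the stalk proteins, which recruit and switch on the elongation factors, fell together. RPLP0, the base of the stalk, read 1393, 1562 and 1387 CPM at P3, 1097, 1117 and 1029.5 at P24, 880.1, 889 and 918 at P30 and 721, 754 and 721 at P33, and no 2 of these groups overlapped. At P11 RPLP0 read 1112, 1216 and 1248 CPM, below every P3 library but overlapping P24. Its change from P3 to P33 was -0.98 ± 0.05 (edgeR adjusted p = 8.71e-15), and it was among the 8 genes that also fell between P24 and P30 (-0.27 ± 0.05, adjusted p = 1.65e-04). RPLP1 and RPLP2 form the paired arms of the stalk. RPLP1 went from 457, 529 and 518 to 286, 261 and 279 CPM (-0.87 ± 0.08, adjusted p = 2.51e-10), and RPLP2 from 552, 648 and 554 to 291, 297 and 292 CPM (-0.996 ± 0.06, adjusted p = 5.54e-14).

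RPL5 and RPL11 join 5S ribosomal RNA in a particle that enters the large subunit and, when not assembled, binds MDM2. RPL5 read 932, 919 and 868 CPM at P3 and 474, 487 and 467 at P33 (-0.93 ± 0.05, edgeR adjusted p = 1.04e-14). RPL11 read 795, 892 and 862 at P3 and 487, 495 and 457 at P33 (-0.82 ± 0.05, adjusted p = 2.34e-13). In both, all P33 libraries lay below all P3 libraries. RPL10, a late-joining protein near the peptidyl transferase centre, did not differ detectably from P3 at P11 (-0.09 ± 0.06, adjusted p = 0.202). Its libraries read 283, 305 and 274 CPM at P11 and 248, 250 and 233 at P24, without overlap. From P30 to P33 it went from 237, 257 and 241 CPM to 163, 156 and 149.6 (-0.65 ± 0.06, adjusted p = 5.50e-10).

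RPL41 was the single gene of the 76 called higher at P33 than at P3. It encodes a very short, basic protein at the subunit interface. RPL41 (chr12:56116590-56117967) read 657, 803 and 675 CPM at P3, 1366, 1349.8 and 1275 at P11, 1214, 1366 and 1249 at P24, 1310.3, 1260.5 and 1245 at P30 and 932, 792 and 1004 at P33. The 3 middle passages lay far above P3, and the P33 libraries lay between, with 1 of them inside the P3 range. It rose by 0.90 ± 0.07 at P11 (edgeR adjusted p = 1.55e-10), fell from P30 to P33 (-0.48 ± 0.07, adjusted p = 2.75e-06) and ended 0.35 ± 0.07 above P3 (adjusted p = 8.76e-05). RPL41 overlaps no gene on its strand, yet its mean CPM was 1330 in untreated P11 cells and 122 in P11 cells with DMSO. The reason for that gap was not tested.

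RPL23, which sits at the face where the subunits meet and can also bind MDM2, had a similar course with a smaller rise. It read 713, 674 and 642 CPM at P3, 1006, 850.3 and 941 at P11, 843, 928 and 699 at P24, 932, 863 and 765 at P30 and 591, 581 and 656 at P33. The P11 and P30 libraries all lay above P3, and the P33 libraries overlapped P3. It rose at P11 (0.46 ± 0.08, edgeR adjusted p = 2.67e-05) and fell from P30 to P33 (-0.49 ± 0.08, adjusted p = 1.36e-05), which left a change of -0.15 ± 0.08 from P3 that did not pass (adjusted p = 0.0932). It passed as a fall with no count filter (-0.19) and without P33 replicate 3 (-0.21). RPL15, needed early in large-subunit assembly, had the smallest fall of the 72: it read 507, 576 and 498 CPM at P3 and 405, 383 and 416 at P33 (-0.39 ± 0.05, adjusted p = 3.72e-07).

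**Figure D3:**
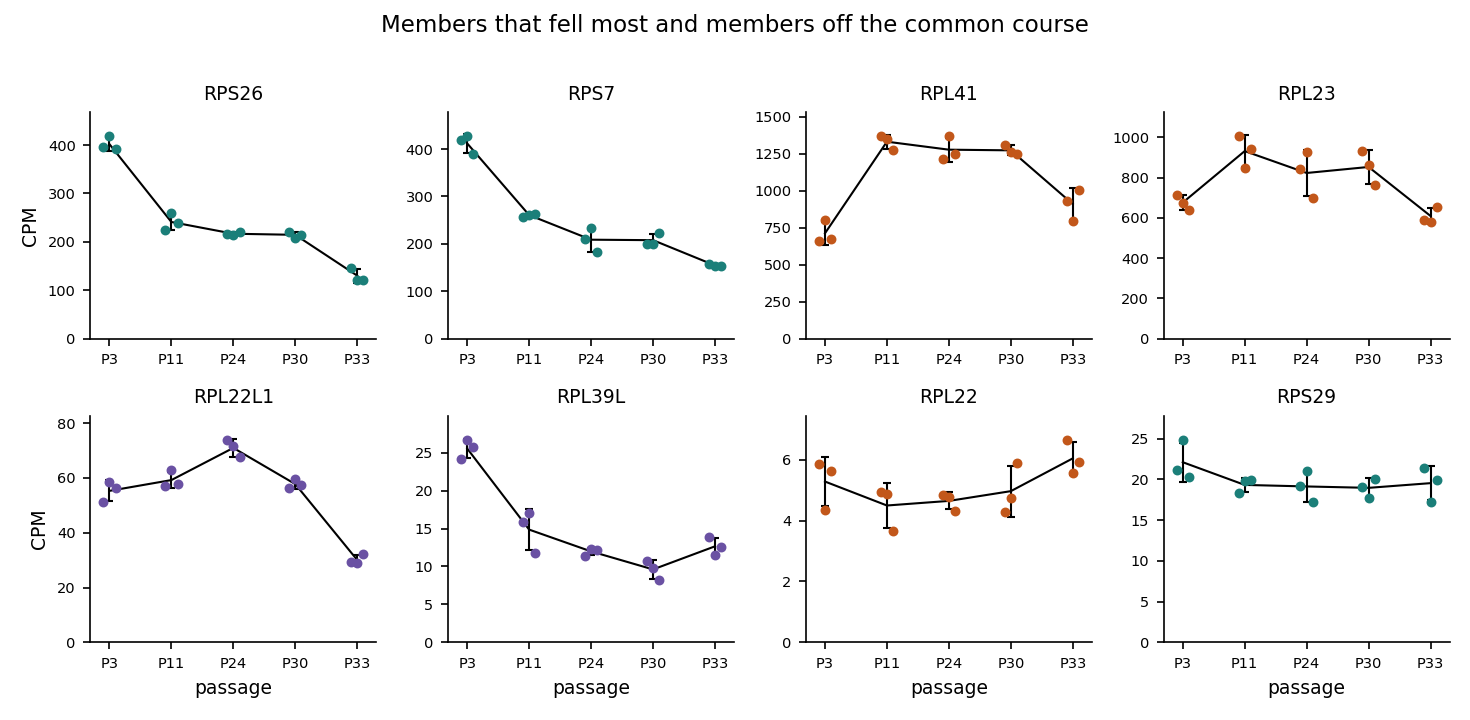
CPM by passage for 8 genes, each on its own axis from 0. Points are libraries, the line joins the means and bars are 1 SD of 3 libraries. Green marks small-subunit genes, orange large-subunit genes and purple minor paralogs. RPS26 and RPS7 step down, RPL41 and RPL23 are higher from P11 to P30 than at P3, RPL22L1 peaks at P24, RPL39L is lowest at P30, and RPL22 and RPS29 show no step.

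To ask which genes moved more or less than the set, the fit was repeated with each library's size set to its summed ribosomal protein counts. On that scale 30 of the 76 were lower and 15 higher at P33 than at P3, where 5.23% of all genes tested were lower and 83.2% higher, as follows from scaling to a set that fell. The 5 lowest all belonged to the small subunit, a pattern seen after the values were known: RPS26 at -0.78, RPS21 at -0.64, RPS7 at -0.57, RPS25 at -0.53 and RPS28 at -0.53. The highest were RPL41 at 1.21 ± 0.07, RPL22 at 1.05 ± 0.14 and RPL23 at 0.70 ± 0.08, followed by RPS29 at 0.67 ± 0.08 and RPL15 at 0.46 ± 0.06. The small subunit therefore held both the deepest falls and 1 of the genes that kept nearest to its P3 level.

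The 4 minor paralogs each resemble a main protein, and RPL22L1 and RPL39L are known for expression that differs between tissues. Shares below are of the pair's counts, without correction for length, so they compare groups and not the paralogs with each other. RPL22L1 read 51.04, 58.5 and 56.3 CPM at P3, 57.2, 62.7 and 57.8 at P11, 73.8, 71.6 and 67.5 at P24, 56.2, 59.8 and 57.3 at P30 and 29.2, 28.9 and 32.1 at P33, highest at P24 and lowest at P33 with no overlap of either with other passages. It rose from P11 to P24 (0.26 ± 0.06, edgeR adjusted p = 9.46e-04), fell by P30 (-0.30 ± 0.06, adjusted p = 2.48e-04) and fell further by P33 (-0.94 ± 0.06, adjusted p = 2.33e-12). No other of the 76 genes had as large a change between P30 and P33.

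RPL22, its main partner, read 5.87, 4.36 and 5.63 CPM at P3 and 6.65, 5.57 and 5.92 at P33, overlapping groups (0.20 ± 0.14, edgeR adjusted p = 0.181). Its counts in the passage libraries are low, as given above, and it was higher at P33 than at P11 (0.42 ± 0.15, adjusted p = 0.015). That call was lost without P11 replicate 3 (adjusted p = 0.101) or P33 replicate 1 (adjusted p = 0.0784). RPL22L1 made up 91.2% ± 1.71 of the pair's counts at P3, 93.9% ± 0.104 at P24 and 83.2% ± 1.58 at P33. These shares rest on the low counts of RPL22, which is 56.13% covered by other genes. The part of the counting in them was not tested. RPL22 passed as higher at P33 than at P3 in 2 alternatives, with library totals in place of TMM (0.39) and with the reads of its pseudogenes added (0.32).

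RPL39L took another course. It read 24.2, 26.7 and 25.8 CPM at P3, 15.8, 17.01 and 11.8 at P11, 11.4, 12.3 and 12.2 at P24, 10.8, 9.84 and 8.21 at P30 and 13.8, 11.5 and 12.6 at P33, so the P30 libraries were the lowest. It was the 1 gene that rose from P30 to P33 (0.38 ± 0.12, edgeR adjusted p = 0.0069), and it ended -1.01 ± 0.10 from its P3 level (adjusted p = 8.02e-10). The rise did not pass without P30 replicate 3 (0.28, adjusted p = 0.060001). RPL39, at the end of the peptide tunnel, went from 135, 146 and 129.9 to 83.97, 78.97 and 75.9 CPM (-0.78 ± 0.06, adjusted p = 1.81e-12). RPL39L held 15.7% ± 0.747 of that pair's counts at P3, 8.66% ± 0.814 at P30 and 13.7% ± 0.834 at P33.

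RPL7L1, which takes part in early large-subunit assembly, read 173, 178 and 184 CPM at P3, 121, 125 and 120.4 at P11, 138, 137 and 140.3 at P24 and 109, 109 and 116 at P33. It fell to P11 (-0.54 ± 0.05, edgeR adjusted p = 4.61e-09), rose to P24 (0.18 ± 0.05, adjusted p = 0.00946) and with RPL22L1 made up the 2 rises of that step. The rise of RPL7L1 to P24 did not pass with library totals in place of TMM factors (0.137, edgeR adjusted p = 0.05035). RPL7 fell from 292, 310.4 and 297 to 161, 161 and 149 CPM (-0.94 ± 0.05, adjusted p = 1.22e-14), and the share of RPL7L1 in the pair was 37.3% ± 0.897 at P3 and 41.5% ± 1.99 at P33. RPL36AL fell from 291, 311 and 326 to 175, 188 and 193 CPM (-0.74 ± 0.05, adjusted p = 3.54e-12), and its partner RPL36A is one of the 5 genes with next to no counts in the passage libraries. Among paralogs outside the naming rule, RPL26L1 changed by -1.36 ± 0.07 and RPS27L by -0.83 ± 0.05 from P3 to P33, both falls.

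Under DOX the set had a median change near 0 and a few genes moved. As a check of the treatment, CDKN1A, the p53 target that arrests the cycle, went from 128, 130.2 and 135 CPM with DMSO to 460.2, 455 and 423 with DOX (1.77 ± 0.07, edgeR adjusted p = 6.73e-13), and MDM2 rose by 1.502 ± 0.08 (adjusted p = 3.71e-11). Of the 81 ribosomal protein genes 4 rose and 6 fell, where 16.8% and 18.3% of the 14826 genes tested did. An unadjusted p under 0.05 was found for 15 of the 81, and for 6496 of the 14826 genes tested. The median log2 change of the 81 was -0.02, beside 0.00 over all genes tested, and their changes ran from -0.63 to 0.44. DOX libraries all lay below the DMSO libraries for 7 genes and above for 4, against 23.5% and 22.4% of all genes tested. The difference between these shares was not tested. Mitochondrially encoded mRNAs took 4.42 to 4.8015% of counts with DMSO and 5.17 to 5.48% with DOX, and melanocyte and Schwann cell markers summed to 72.5 to 75.1 CPM and 50.99 to 52.7 CPM. Their part in the DOX changes was not tested.

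RPS19 rose most. Its DMSO libraries read 133, 125 and 149 CPM and its DOX libraries 175, 201 and 173, with no overlap, a log2 change of 0.44 ± 0.08 (SE; edgeR adjusted p = 1.95e-04). Set against the summed ribosomal protein counts it was the 1 gene that was higher (0.43 ± 0.10, adjusted p = 0.00158), where 11.5% of all genes tested were. RPL41 went from 119, 114 and 132 to 139.8, 153 and 142 CPM (0.25 ± 0.07, adjusted p = 0.00838). RPL41 did not pass without DMSO replicate 2 (0.20, adjusted p = 0.0574).

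RPL26 and RPL17 also passed as rises, on low counts from genes almost wholly covered by others. RPL26, whose protein binds the p53 mRNA, read 5.90, 4.67 and 6.39 CPM with DMSO and 6.51, 7.48 and 8.14 with DOX (0.37 ± 0.14, edgeR adjusted p = 0.0413). RPL17, at the mouth of the peptide tunnel, read 7.40, 8.02 and 9.87 and 9.99, 10.4 and 10.7 CPM (0.30 ± 0.11, adjusted p = 0.0468). Neither pair of groups overlapped, yet with DESeq2 neither passed (adjusted p = 0.0696 and 0.088), and the call of RPL26 was lost without DMSO replicate 1 or 2 or DOX replicate 2 or 3 (adjusted p up to 0.181). The call of RPL17 was lost without any single library but DMSO replicate 3 (adjusted p up to 0.25). RPL37A, which had the fifth highest change, read 819.7, 846 and 1068 and 892, 1136 and 1143 CPM and did not pass (0.21 ± 0.10, adjusted p = 0.109). RPL37A passed as a rise with no count filter (0.21) and with the replicate number as a block (0.22). It also passed without DMSO replicate 3 (0.34) or DOX replicate 1 (0.32).

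Both tissue-variable paralogs fell. RPL39L read 15.2, 16.3 and 16.8 CPM with DMSO and 9.40, 11.5 and 10.5 with DOX, groups that did not overlap (-0.63 ± 0.10, edgeR adjusted p = 5.97e-05). RPL39 read 80.7, 69.7 and 84.1 and 76.4, 89.6 and 91.1 CPM (0.13 ± 0.08, adjusted p = 0.228), so the share of RPL39L in the pair was 17.2% ± 1.59 with DMSO and 10.9% ± 0.544 with DOX. RPL22L1 read 89.7, 77.2 and 96.8 and 66.2, 65.7 and 68.996 CPM (-0.39 ± 0.08, adjusted p = 4.85e-04), again without overlap. With RPL22 at 49.6, 47.4 and 52.4 and 53.7, 53.8 and 45.97 CPM (0.04 ± 0.07, adjusted p = 0.728), the share of RPL22L1 was 63.7% ± 1.56 with DMSO and 56.7% ± 2.83 with DOX. RPL7L1 and RPL36AL did not pass (0.11 and -0.06).

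RPS7 read 307, 244 and 316 CPM with DMSO and 235, 251 and 197 with DOX. The groups overlapped through DMSO replicate 2, and the change was -0.34 ± 0.09 (edgeR adjusted p = 0.00822). Without DOX replicate 3 it was -0.25 and did not pass (adjusted p = 0.0518). With RPL39L and RPL22L1, RPS7 made up the 3 genes lower than the summed set (14% of all genes tested were lower). RPL5, RPL11 and RPL23, which can also bind MDM2, did not pass, with changes of -0.05 ± 0.07, 0.03 ± 0.08 and -0.04 ± 0.08.

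RPL10, RPS2 and RPS9 fell by less. RPL10 read 485, 453 and 443 CPM with DMSO and 356, 409 and 411 with DOX (-0.23 ± 0.07, edgeR adjusted p = 0.0147), and it did not pass without DMSO replicate 1 (-0.20, adjusted p = 0.0901) or DOX replicate 1 (-0.17, adjusted p = 0.107). RPS2 went from 326, 278 and 313 to 268, 267 and 253 CPM (-0.22 ± 0.07, adjusted p = 0.0187). RPS9, at the shoulder of the small subunit, went from 125, 119.7 and 124 to 111, 110.1 and 106 CPM (-0.18 ± 0.06, adjusted p = 0.0299). In all 3 the groups did not overlap. RPS2 and RPS9 were singled out after their values were seen. RPS2 did not pass without DMSO replicate 1 (adjusted p = 0.123), DMSO replicate 3 (0.0617) or DOX replicate 3 (0.0631). RPS9 did not pass without DMSO replicate 1 or 3 or DOX replicate 1 or 3 (adjusted p up to 0.113). Of the genes almost wholly covered by others, RPS10 and RPL36A did not pass, with changes of -0.38 ± 0.43 and -0.02 ± 0.16 on few counts.

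The deep fallers of the passages did not pass under DOX, RPS7 apart. RPS26 read 265, 238 and 299 CPM with DMSO and 269, 295 and 311 with DOX (0.13 ± 0.08, edgeR adjusted p = 0.236). RPS21 was at -0.13 ± 0.09, RPS25 at -0.10 ± 0.07 and RPS28 at 0.08 ± 0.08 on the log2 scale. The stalk genes did not pass either, with RPLP0 at 0.07 ± 0.08, RPLP1 at -0.05 ± 0.07 and RPLP2 at 0.02 ± 0.07. The difference between the passage effect and the DOX effect was not tested.

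**Figure D4:**
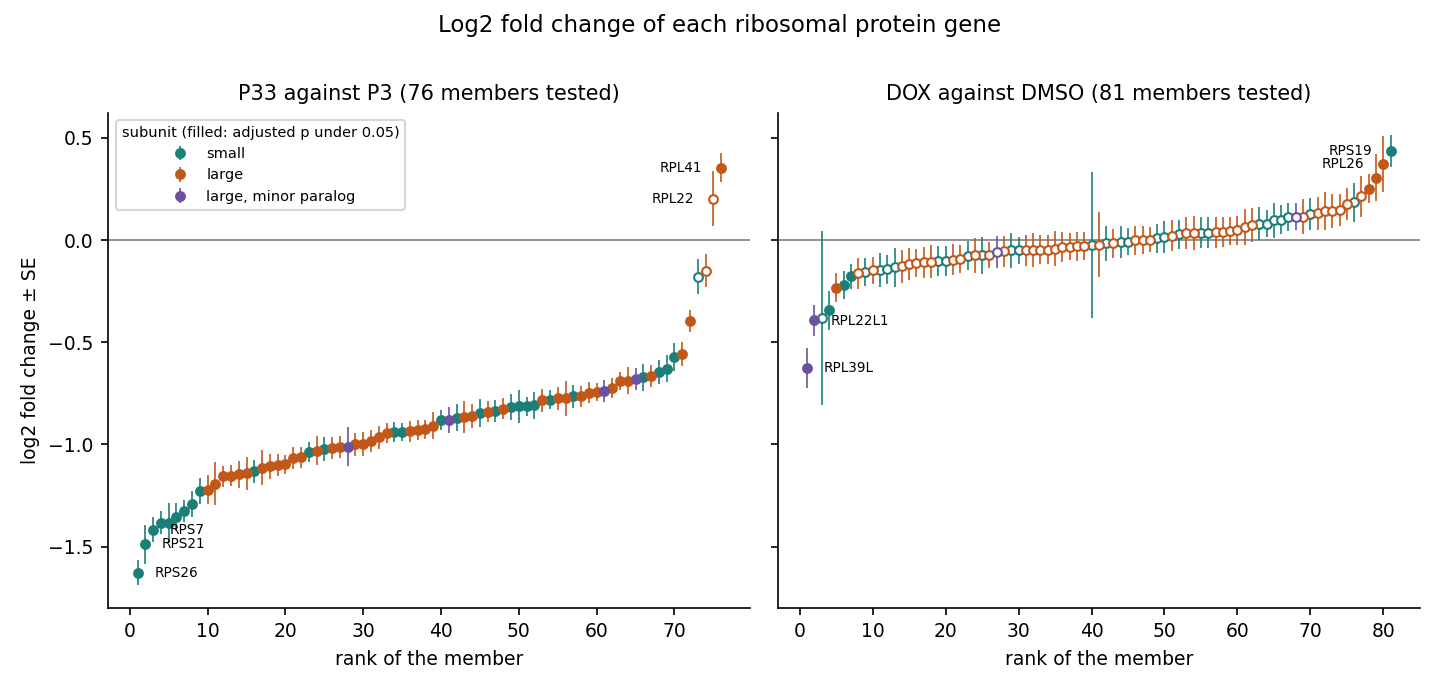
Log2 fold change with its SE for every tested gene, ranked, for P33 against P3 on the left and DOX against DMSO on the right, on 1 shared vertical axis. Colours give the subunit, and filled points had an adjusted p under 0.05. On the left 72 of 76 points are filled below 0, and on the right 10 of 81 are filled, 4 above 0 and 6 below. The 2 panels come from separate fits.

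**Figure D5:**
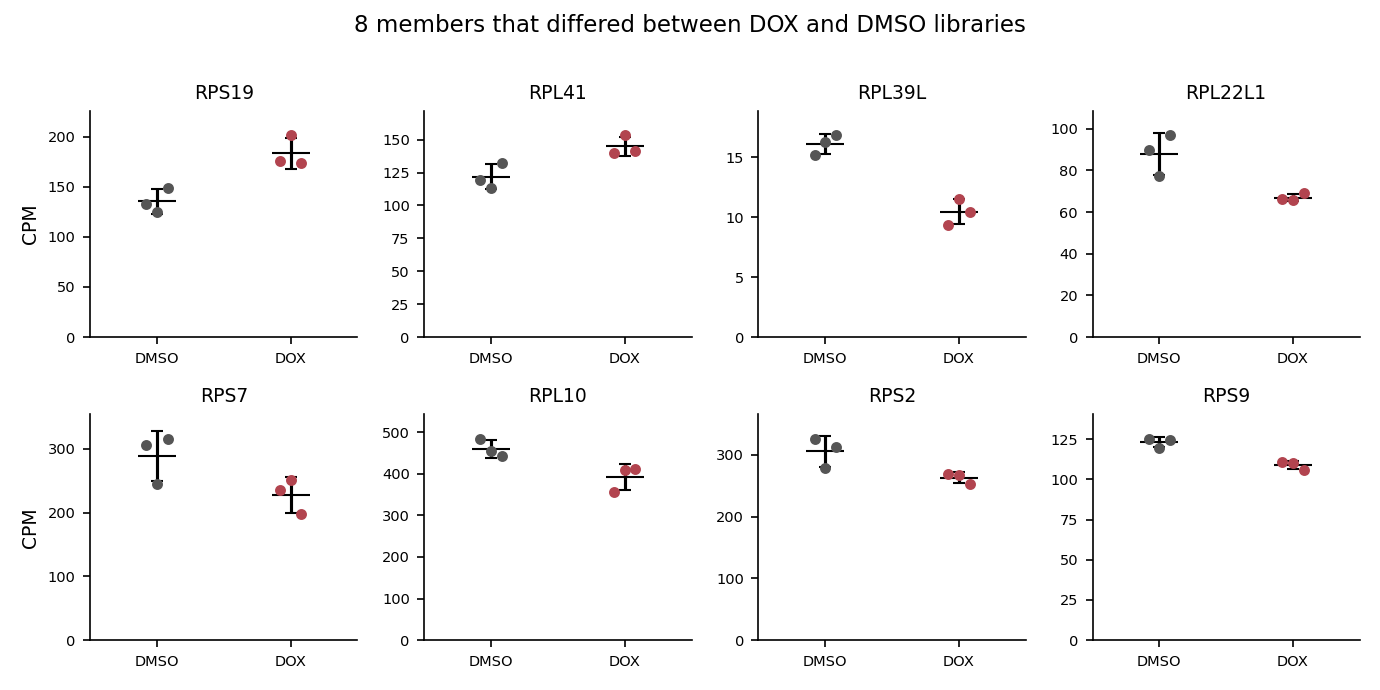
CPM in the 3 DMSO and 3 DOX libraries for 8 of the 10 genes that differed, each on its own axis from 0. Points are libraries, the wide mark is the mean and bars are 1 SD. RPS19 and RPL41 lie higher with DOX, RPL39L and RPL22L1 lower, and of the 8 the libraries overlap in RPS7.

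Genes with and without the tract had close medians. The 44 tested genes with a TOP tract at a listed start had a median log2 change of -0.87 from P3 to P33, with 42 falls. The 17 with an entry and no match had -0.94, with 16 falls. Of the genes shown above, RPS21 and RPS25 carry the tract and fell, RPL41 carries it and rose, and RPS26, RPS7 and RPS28 have no match at the listed start. These are counts over a set chosen by name, with no test.

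Ribosomal protein genes are short, and short genes as a group also had a median below 0 at P33, nearer to 0 than theirs. Genes outside the set with a coding length of at most 450 bases had a median change of -0.23 from P3 to P33 over 749 genes, beside -0.89 for the 36 ribosomal protein genes of that length. From 450 to 900 bases the medians were -0.13 over 2330 genes and -0.93 over 37. For P11 against P3, genes of at most 450 bases had medians of -0.21 outside the set and -0.46 within it. From 450 to 900 bases these were -0.13 and -0.31. For P33 against P30, the shortest genes had medians of -0.01 outside the set and -0.34 within it. Across the 76 genes, coding length and the change from P3 to P33 had a Pearson r of -0.04 and a Spearman coefficient of 0.05, and level and change had 0.05 and 0.12, as descriptions of genes that share the same libraries. The part of length or of RNA quality in the fall was not tested.

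Genes that work with the ribosome were taken from lists of known roles. Their counts for P33 against P3 are to be read against the 35.9% of all genes tested that fell and the 37.8% that rose. FAU and RACK1 both fell from P3 to P33. FAU, made as a fusion whose ribosomal part is eS30, went from 374 ± 6.39 to 172 ± 7.72 CPM (-1.12 ± 0.06, edgeR adjusted p = 1.02e-14). RACK1, the scaffold at the head of the small subunit, changed by -0.70 ± 0.05. Under DOX they were at -0.20 and -0.14 and did not pass. Of 16 tested mRNAs outside the set that are known to begin with a TOP tract, 15 fell and 1 rose from P3 to P33, with a median of -0.74. They include EEF1B2, an exchange factor of elongation (-0.94), and NPM1, a nucleolar chaperone (-0.98).

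Among the factors that build ribosomes, more were called lower from P3 to P11 than from P11 to P33. Of 43 genes of the small-subunit processome and 40S assembly, 36 fell and 1 rose from P3 to P11, with a median of -0.48 (all genes tested: 27.8% fell and 24.6% rose), and the median for P33 against P11 was -0.15 (21 fell and 7 rose). Of 50 genes of 60S assembly and export, 42 fell and 4 rose by P11, median -0.52, and P33 against P11 had -0.12 (22 fell and 9 rose). The ribosomal protein genes had medians of -0.32 and -0.57 for the same comparisons, with 74 falls and 1 rise for P33 against P11, where 31.3% of all genes fell and 32% rose. These comparisons share the P11 libraries, and the difference between lists was not tested. FBL, the methyltransferase of ribosomal RNA, went from 48.7 ± 2.25 CPM at P3 to 17.9 ± 0.501 at P33 (-1.44 ± 0.07, edgeR adjusted p = 5.56e-16). NSA2, a factor of 60S maturation, changed by -1.37 ± 0.05.

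Of 11 chaperones that carry single ribosomal proteins, 10 fell from P3 to P33 and 1 did not pass, median -0.59, where 35.9% of all genes tested fell. RRS1, which loads the 5S particle, changed by -1.32 ± 0.08 and GRWD1, the carrier of RPL3, by -1.16 ± 0.08. Among 15 genes of RNA polymerase I, which transcribes the large ribosomal RNAs, 12 fell and 1 rose, median -0.38, and POLR1G changed by -1.23 ± 0.10. Of 7 factors that bind the ribosomal stalk all 7 fell, median -0.44. Among 19 genes of MTOR, LARP1 and their partners 14 fell and 1 rose, median -0.33: LARP1 went from 237 ± 9.22 to 186 ± 7.11 CPM (-0.35 ± 0.05) and MTOR from 101 ± 1.60 to 87.7 ± 4.11 (-0.20 ± 0.05). RPS6KB2, an S6 kinase, changed by -0.93 ± 0.07, and MLST8, a subunit of both MTOR complexes, by -0.91 ± 0.08.

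Among 9 tested genes of MYC, its partners and other transcription factors of ribosomal protein genes, 3 rose from P3 to P33 and 6 did not pass, median -0.01. Their share of rises is near the 37.8% of all genes tested. MYC stood at 31.1, 32.4 and 33.7 CPM at P3 and 34.1, 31.8 and 31.2 at P33, overlapping groups (0.00 ± 0.07, edgeR adjusted p = 0.981), although it was lower at P11 (-0.50 ± 0.07). MXD1, which competes with MYC for its partner MAX, rose by 1.64 ± 0.09. In the list of the 5S particle and the MDM2 checkpoint 8 of 13 fell, among them RPL5, RPL11, RPS7, RPS27A and RRS1 described above, and 4 rose. MDM2 rose from 163 ± 6.60 to 318 ± 3.72 CPM (0.97 ± 0.05, adjusted p = 4.75e-15), and MDM4, its partner, by 1.24 ± 0.06.

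Under DOX, where 16.8% of all genes tested rose and 18.3% fell, the counts were as follows. For 40S assembly 3 of 43 rose and 3 fell, for 60S assembly 8 of 52 rose and 2 fell, for RNA polymerase I 2 of 15 fell and 13 did not pass, and for the MTOR and LARP1 list 2 rose and 5 fell of 19. In the list of the 5S particle and the MDM2 checkpoint 5 of 14 rose, among them CDKN1A, MDM2 and RPL26 given above, and 1 fell, and of 7 stalk factors 2 rose. FBL fell from 29.2, 27.8 and 29.8 to 19.3, 17.4 and 20.1 CPM without overlap (-0.61 ± 0.08, edgeR adjusted p = 7.73e-06). MAK16, a 60S assembly factor, rose by 0.47 ± 0.07, and MXD1 rose by 0.61 ± 0.11. Of 17 other TOP mRNAs 1 rose and 2 fell, with NPM1 at -0.24 ± 0.08. Of 13 mitochondrially encoded mRNAs, translated on another ribosome, 4 rose and 9 did not pass under DOX, and 3 rose and 3 fell from P3 to P33, shares below those of all genes tested at P33.

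Outside the set, the courses most like the mean course of the 76 genes over the 15 passage libraries were those of EIF3D (r = 0.995), ITPA, ARHGDIA, PSMB1, SMARCB1, FLOT1, PSMC2, EIF3K, EEF1B2 and PHB2 (r = 0.985). They were the 10 highest of 12608 protein-coding genes compared, of which 675 had r over 0.9, and the points share their libraries and depth. Their log2 changes from P3 to P33 ran from -1.42 (ARHGDIA) to -0.82 (PSMC2, a proteasome ATPase).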

How the data were processed

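The 21 libraries come from poly(A)-selected RNA of BJ cells. The authors deposited 1 table of raw counts per gene, and no other unit was used. HISAT2 2.1.0, featureCounts 2.0.1 (Subread), SAMtools 1.11, cutadapt 3.3, FastQC 0.11.9 and DESeq2 1.34.0 are named in the submitters' processing notes, with the builds hg38 and GRCh38.p13. The sources used here do not state the counting options.

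The deposited counts were tested with edgeR 4.0.16 (R 4.3.3) by its quasi-likelihood test with TMM factors, a minimum count of 10 (filterByExpr) and Benjamini-Hochberg adjustment over all genes tested. The 15 passage libraries and the 6 DOX and DMSO libraries were fitted apart, with 10 and 4 residual degrees of freedom. CPM are counts scaled by the library total and its TMM factor. A sum over genes was compared by an exact permutation test. Totals of 12.9 to 27.2 M counts gave a median coefficient of variation between replicates of 4.18 to 8.0% for ribosomal protein genes.

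Alternatives were DESeq2 1.42.0, limma 3.58.1 (voom), library totals, TMM without the set, other filters, 1 joint fit, a replicate block, added pseudogene counts, genes without overlap, and each library left out. The labels do not state that libraries with the same replicate number belong together. Correlations of their deviations ran from -0.394 to 0.175, which cannot show if they do. On simulated counts for P33 against P3 (15261 genes), edgeR recovered 52.2, 79.1 and 95.5% of genes changed 1.5-, 2- and 4-fold, with 4.43% false calls. For DOX against DMSO (14581 genes) it recovered 74.6, 89.6 and 97%, with 7.45% false calls. Genes named in the text are the 5 with the highest and the 5 with the lowest changes in P33 against P3 and in DOX against DMSO, the 3 furthest from the summed set in each direction, paralog pairs, the stalk, other proteins with a known role, and up to 2 genes of each list beside FAU, RACK1, MYC, LARP1, MTOR and MDM2. Other genes named for a step between passages are those that passed there. The values of some single genes are not reported here. The members and lists were chosen with earlier results of these data known.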

Additional observations from a re-analysis of the deposited data

How the results depend on the processing

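With the 40 genes that overlap no other gene on their strand, falls numbered 39 for P33 against P3, 35 for P11 against P3, 38 for P24 against P3, 38 for P30 against P3, 31 for P24 against P11, 5 for P30 against P24, 38 for P33 against P30, 40 for P33 against P11 and 3 for DOX. In the same set rises numbered 1 for P11 against P3, 1 for P30 against P3, 1 for P30 against P24, 0 for P33 against P11 and 1 for DOX, because fewer genes were counted. With library totals in place of TMM, rises numbered 2 for P33 against P3, 1 for P24 against P11, 1 for P30 against P24 and 2 for P33 against P30, and falls 50 for P11 against P3 and 56 for P33 against P30. With pseudogene counts added rises numbered 3 for P33 against P3, 5 for P24 against P3 and 2 for P33 against P11. A filter of 10 CPM gave 2 rises for P30 against P24, 0 for P33 against P11 and 2 for DOX, and no filter gave 7 rises for P30 against P24. The joint fit gave 4 falls for P30 against P24 and 2 rises for DOX, and DESeq2 gave 2 rises for DOX. RPL22 reached at most 6.65 CPM in the passage libraries and RPL26 at most 8.14 CPM under DOX, so the 10 CPM filter left them out. RPL26 and RPL17 were the DOX rises that did not pass with DESeq2 or in the joint fit. Beyond these and the first set, the cause was not tested.

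Leaving out 1 library gave 72 to 73 falls for P33 against P3, 60 to 64 for P11 against P3, 38 to 55 for P24 against P11, 67 to 72 for P33 against P30, and 0 to 1 rises for P33 against P11 (0 without P11 replicate 3 or P33 replicate 1). For DOX it gave 3 to 9 falls and 1 to 7 rises. There were 3 falls without DMSO replicate 1 or DOX replicate 3, and 2 rises without DMSO replicate 1 or DOX replicate 2, 1 without DMSO replicate 2 and 7 without DMSO replicate 3. For P30 against P24 it gave 4 to 7 falls and 1 to 8 rises, with 5 falls without P24 replicate 1 or any 1 P30 library, 4 falls and 8 rises without P24 replicate 2, 2 rises without P24 replicate 1 or 3 and 1 without P30 replicate 1. The DOX difference in the summed share ran from -0.097 to 0.14 percentage points and changed sign without DOX replicate 1 (0.12) or DMSO replicate 3 (0.14). The genes picked for naming in the text were set against the main fit in each alternative, for P33 against P3 and DOX against DMSO. Counted per gene and alternative, 846 results kept direction and side of the threshold, 13 gained a call and 19 lost one. RPS2 and RPS9 are not among these genes and are given in the report.

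With the replicate number as a block, 72 genes fell and 1 rose for P33 against P3, and 5 fell and 5 rose under DOX, where RPS9 did not pass (adjusted p = 0.0525). The labels do not state that the numbers pair the samples. In the simulation 1.5-fold changes were recovered least often, so a change not called at this depth may still be there.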
